A study of Mus musculus with 3 samples.

Results

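The genes described here are 10 early response genes of the EGR, KLF and NR4A families and their usual companions: Egr1, Egr2, Nr4a1, Klf2, Klf4, Klf6, Zfp36, Btg2, Ier2 and Ier3. They were taken by symbol, with earlier results of these data known, and all 10 were found among the 24067 genes of the deposited table. The study measured mRNA in primary mouse pre-osteoclasts, single-nucleus cells positive for tartrate-resistant acid phosphatase (TRAP) that can fuse into osteoclasts. It asked what Ift88, a component of the transport machinery of the primary cilium, does in these cells under fluid shear. There were 3 groups with 1 library each. Control shRNA was used in a static (unsheared) and in a sheared group, and Ift88 shRNA in a further sheared group. Genotype is labelled WT for both control groups and Ift88 knockdown for the last one. All 3 groups carried a short hairpin RNA and were differentiated with MCSF and RANKL for 2 days. Orbital shear stress, flow made by swirling the dish, was then applied for 24 hours. The sources used here do not give mouse strain, age, number of animals or shRNA vector. Ift88 shRNA without shear was not analysed here, so what the hairpin does with and without flow cannot be told apart.

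Early response genes, also called immediate early genes, are transcribed soon after a stimulus without need for new protein synthesis, and their mRNAs are usually short-lived. Signals reach them through ERK kinases and the serum response factor SRF, through CREB, and, for Klf2 and Klf4, through the kinase ERK5 and MEF2 factors. In endothelial cells Klf2 and Klf4 are textbook flow-responsive genes. In macrophage-lineage cells EGR, NR4A and KLF proteins are transcription factors, and Zfp36 and Btg2 act on mRNA decay. The RNA was taken after many hours of flow, so a brief early peak would not be seen in these libraries.

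Depth was nearly equal, at an estimated 35201000, 35234000 and 35124000 fragments in the static, sheared control and sheared Ift88 shRNA libraries. Values are FPKM, fragments divided by transcript length and by library size, so levels can be compared between genes. Ift88 was at 2.98, 2.71 and 1.197 FPKM in that order, a ratio of 0.442 (0.354 to 0.549) for Ift88 shRNA over the sheared control, in the direction of the label. Brackets hold 95% Clopper-Pearson intervals from estimated fragments, which cover counting error only. Since each group is a single library, differences have no replicate check and no test was made. In bulk RNA, fewer cells of a type and less RNA per cell cannot be told apart. Summed osteoclast precursor markers (11 genes) were at 445, 339 and 413 FPKM and neutrophil markers (10 genes) at 79.3, 44.0 and 45.9. Stromal markers (12 genes) summed to 11.8, 9.57 and 11.7 FPKM, and 9 macrophage markers, led by Lyz2, to 33391, 31746 and 32991. Lymphoid markers (8 genes) summed to at most 0.689 FPKM. Of 10 endothelial markers, a cell type known for high Klf2 and Klf4, the sum was 29.9, 27.9 and 29.3 FPKM. Nearly all of it was Vwf and Kdr, while Cldn5 was listed at 0 in every library and Cdh5 was at 0.0526, 0.112 and 0.164 FPKM.

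The sequences upstream of some of these genes hold matches to the motifs of the routes named above. RefSeq upstream sequences (GRCm38.p6) were matched for 8 of the 10 genes, all but Egr1 and Ier2. The 250 bases before the start site are shown for 5 genes, and 30 bases for Egr2, because together they hold a match to each kind of motif that was found. Egr2 has 5 start sites in that table, and the one nearest to the start of its GENCODE transcript was used. Capitals mark matches on either strand to the CArG box (the SRF motif), TGACGTCA (the full CRE, bound by CREB), TGACG (the CRE half-site), GCGNGGGCG (the EGR motif), TGANTCA (AP-1), TATAAA, and the MEF2 and kappaB motifs, the last 2 given by name alone.
Egr2 (chr10:67537787-67537816, plus strand): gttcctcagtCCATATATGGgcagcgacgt
Zfp36 (chr7:28379229-28379478, minus strand): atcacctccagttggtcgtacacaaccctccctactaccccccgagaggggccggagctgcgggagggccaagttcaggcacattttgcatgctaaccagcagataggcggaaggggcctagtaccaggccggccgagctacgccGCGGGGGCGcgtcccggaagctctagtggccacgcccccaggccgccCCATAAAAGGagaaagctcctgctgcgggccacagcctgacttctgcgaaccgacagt
Klf2 (chr8:72318812-72319061, plus strand): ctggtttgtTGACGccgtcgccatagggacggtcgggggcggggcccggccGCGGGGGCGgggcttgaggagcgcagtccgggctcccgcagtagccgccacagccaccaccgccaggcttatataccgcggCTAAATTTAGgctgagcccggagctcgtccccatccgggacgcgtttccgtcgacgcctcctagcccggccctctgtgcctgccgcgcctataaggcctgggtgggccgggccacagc
Nr4a1 (chr15:101266596-101266845, plus strand): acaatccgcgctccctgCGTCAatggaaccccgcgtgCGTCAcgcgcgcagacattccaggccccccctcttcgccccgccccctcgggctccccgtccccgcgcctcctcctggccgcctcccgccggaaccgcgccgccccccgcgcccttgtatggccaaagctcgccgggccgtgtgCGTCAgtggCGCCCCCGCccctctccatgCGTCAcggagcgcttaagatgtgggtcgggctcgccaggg
Btg2 (chr1:134079156-134079405, minus strand): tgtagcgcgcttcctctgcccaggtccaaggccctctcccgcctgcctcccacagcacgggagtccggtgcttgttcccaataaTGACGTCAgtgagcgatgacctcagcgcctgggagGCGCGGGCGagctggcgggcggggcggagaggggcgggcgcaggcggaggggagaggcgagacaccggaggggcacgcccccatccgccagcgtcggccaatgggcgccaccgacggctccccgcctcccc
Ier3 (chr17:35821463-35821712, plus strand): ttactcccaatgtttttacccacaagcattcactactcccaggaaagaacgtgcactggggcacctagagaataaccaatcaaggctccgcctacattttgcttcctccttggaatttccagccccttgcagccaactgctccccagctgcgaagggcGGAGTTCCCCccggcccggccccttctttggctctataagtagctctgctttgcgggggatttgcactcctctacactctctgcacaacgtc

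The CArG box was found upstream of Egr2 (from base -72 to -63 of the start) and Zfp36 (-58 to -49), against 1.47% of 32851 upstream sequences of the same length. Klf2 alone held the MEF2 motif (-118 to -109), which 0.508% of all sequences hold. Nr4a1 held 4 CRE half-sites and Btg2 a full CRE (-166 to -159) that contains a half-site on each strand. Half-sites occurred upstream of 5 of the 8 genes, against 17.8% of all sequences and 27.7% of those of genes kept for analysis. The EGR motif was found upstream of Btg2, Klf2, Klf4, Nr4a1 and Zfp36, against 4.70% of all and 8.84% of kept genes. These 8 sequences had a median GC content of 68%, against 52.4% for all, and the EGR motif is itself rich in G and C. The kappaB motif was found upstream of Ier3 (-92 to -83; 7.25% of all sequences), and neither TGANTCA nor TATAAA was found in the 8 windows. The 5-base motif CACCC, bound by KLF proteins and not capitalised, matched upstream of Egr2 and Klf2 (52.0% of all sequences). The Klf6 window held no match to any of these motifs, and that of Ier3 only the kappaB match. A match describes letters in this window, not binding.

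The genes are compact, with 1 to 7 exons and a median of 2.5, against a median of 8 in 7200 kept genes with 1 transcript, while their median transcript length (2610 bases) was close to that of those genes (2646). The pentamer ATTTA, the core of the AU-rich elements that mark unstable mRNAs, occurred in the 3′ untranslated region of 9 of the 10 genes, against 67.7% of 6900 kept genes (GENCODE M21 transcripts). Its density had a median of 2.26 per kilobase, against 1.30 in those genes. Ier3 had the highest density, 8.16 per kilobase from 5 copies, above 98.4% of kept genes, and Nr4a1 followed at 5.52. Ier2 had none. Zfp36, whose protein binds such elements and is known to act on its own mRNA, was the only one of the 10 with the longer nonamer TTATTTATT, which 6.88% of kept genes hold. That site is shown with the nonamer in capitals.
Zfp36 3′ site (chr7:28376953-28376977, minus strand): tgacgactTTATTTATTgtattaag

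The levels spanned a wide range with Klf6 at the top and Nr4a1 at the bottom in every library. By mean level the order was Klf6, Zfp36, Egr2, Klf2, Ier2, Ier3, Klf4, Btg2, Egr1 and Nr4a1. Only Klf4 and Btg2 had overlapping ranges over the 3 libraries and changed places, Btg2 being the higher in the static library. Ier2 and Ier3 came close without overlapping, the lowest Ier2 value being 7.27 FPKM and the highest Ier3 value 7.19. Klf6 stood above 90.7% to 91.0% of kept genes and Zfp36 above 73.8% to 76.6%, while Egr1 stood above only 0.174% to 3.10%. Genes were kept at a mean of at least 1 FPKM, which 9 of the 10 reached. Egr1 lay just inside this limit with a mean of 1.08 FPKM and Nr4a1 outside with 0.421. Egr1 was inside it only through the Ift88 shRNA library, since its mean over both control libraries was 0.961.

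**Figure D1:**
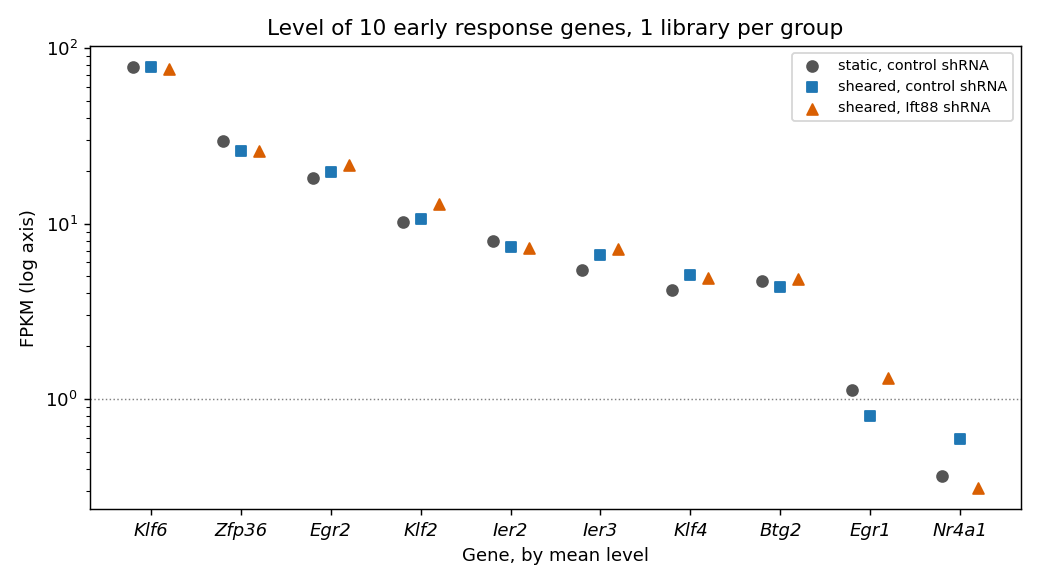
FPKM (log axis) of the 10 genes, ordered by mean, with 1 point per library (circle static control, square sheared control, triangle sheared Ift88 shRNA) and a dotted line at 1 FPKM. Klf6 lies near 77 FPKM in all 3 libraries, the Egr1 points straddle the line with the sheared control lowest (0.803), and the Nr4a1 points lie below it with the sheared control highest (0.593).

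The EGR genes encode zinc finger transcription factors, and Egr2 is one that monocytes and osteoclast precursors express. Egr1 (gene ID 13653, chromosome 18, 34861207 to 34864956, 3 exons) was at 1.12 FPKM in the static library, 0.803 in the sheared control and 1.32 in sheared Ift88 shRNA cells. The sheared control library was the low one, and the level with Ift88 shRNA was the highest of the 3. The ratio of FPKM was 0.719 (0.532 to 0.963) for sheared over static control and 1.64 (1.23 to 2.18) for Ift88 shRNA over the sheared control. These ratios rest on an estimated 112, 81 and 132 fragments. The osteoclast precursor, macrophage, stromal and endothelial marker sums given above were each lowest in the sheared control library too. The neutrophil sum was high in the static library and nearly equal in the sheared ones (44.0 and 45.9 FPKM). Single markers differed from the sums. Of 8 kept osteoclast precursor markers 7 were lower with shear and 7 higher with Ift88 shRNA, but Atp6v0d2 was at 211, 199 and 182 FPKM. Of 9 macrophage markers 7 were lower with shear, but Cd68 was at 1787, 1799 and 1783 FPKM. Any part of these cell types in the Egr1 difference was not tested.

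Egr2 (gene ID 13654, chromosome 10, 67534469 to 67542188) was at 18.1, 19.8 and 21.7 FPKM in the same order, lowest in the static and highest in the Ift88 shRNA library. Each step was small, a ratio of 1.09 (1.02 to 1.16) with shear and 1.10 (1.03 to 1.17) with Ift88 shRNA. Egr2 was thus well above Egr1 in every library, and the pair differed in where the sheared control stood. The Egr2 locus overlaps the model of a long noncoding RNA gene, Gm32255, and no source used here says whether strand was used in counting. Nab1 and Nab2, co-repressors that bind EGR proteins, varied little. Nab1 was at 12.9, 12.3 and 12.999 FPKM and Nab2 at 17.9, 19.0 and 20.04.

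Nr4a1 (gene ID 15370, chromosome 15, 101253902 to 101274795) encodes the orphan nuclear receptor Nur77. It was at 0.362 FPKM in static, 0.593 in sheared control and 0.310 in sheared Ift88 shRNA cells. Here the sheared control library was the high one, the reverse of Egr1. The ratio was 1.64 (1.01 to 2.696) with shear and 0.523 (0.309 to 0.864) with Ift88 shRNA. Only an estimated 29, 48 and 25 fragments lie behind these values, the fewest of the 10 genes.

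The KLF genes encode zinc finger factors that bind CACCC and GC-rich sites. Klf2 (gene ID 16598, chromosome 8, 72319062 to 72321654), which restrains inflammatory activation of monocytes, was at 10.1 FPKM in static, 10.6 in sheared control and 12.985 in sheared Ift88 shRNA cells. The static and sheared control libraries were close, with a ratio of 1.04 (0.928 to 1.17), and the Ift88 shRNA library stood above both. Its ratio over the sheared control was 1.23 (1.10 to 1.37).

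Klf4 (gene ID 16600, chromosome 4, 55527137 to 55532475), which takes part in monocyte differentiation, was at 4.16, 5.08 and 4.86 FPKM. Both sheared libraries were above the static one. The ratio was 1.22 (1.07 to 1.39) for sheared over static control and 0.958 (0.846 to 1.09) for Ift88 shRNA over the sheared control, an interval that includes 1. Klf6 (gene ID 23849, chromosome 13, 5861489 to 5870393), a broadly expressed family member, was at 78.1, 78.2 and 76.5 FPKM, from an estimated 11038, 11127 and 10846 fragments. Its ratio of 1.002 (0.976 to 1.03) with shear bounds a difference at this locus more tightly than for any other of the 10 genes.

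The remaining 4 genes are early response genes of other families. Zfp36 (gene ID 22695, chromosome 7, 28376784 to 28379228) encodes tristetraprolin, which binds AU-rich mRNAs and promotes their decay. It was at 29.6 FPKM in static, 26.1 in sheared control and 25.8 in sheared Ift88 shRNA cells, the static library being the high one. The ratio was 0.883 (0.822 to 0.948) with shear and 0.987 (0.917 to 1.06) with Ift88 shRNA. Btg2 (gene ID 12227, chromosome 1, 134074865 to 134079155), an antiproliferative protein that promotes mRNA deadenylation, was at 4.70, 4.32 and 4.80 FPKM. Its ratios of 0.920 (0.798 to 1.06) and 1.11 (0.967 to 1.28) both have intervals that include 1.

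Ier3 (gene ID 15937, chromosome 17, 35821713 to 35822911), a stress-induced regulator of cell survival, was at 5.47, 6.65 and 7.19 FPKM, lowest in the static library. The ratio was 1.22 (0.991 to 1.497) with shear, 1.08 (0.895 to 1.31) for Ift88 shRNA over the sheared control and 1.31 (1.08 to 1.62) for Ift88 shRNA over the static control. Ier2 (gene ID 15936, chromosome 8, 84661331 to 84662852), a single-exon gene for a nuclear protein, was at 7.93, 7.40 and 7.27 FPKM. Its ratios of 0.932 (0.804 to 1.08) and 0.983 (0.845 to 1.14) both have intervals that include 1.

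**Figure D2:**
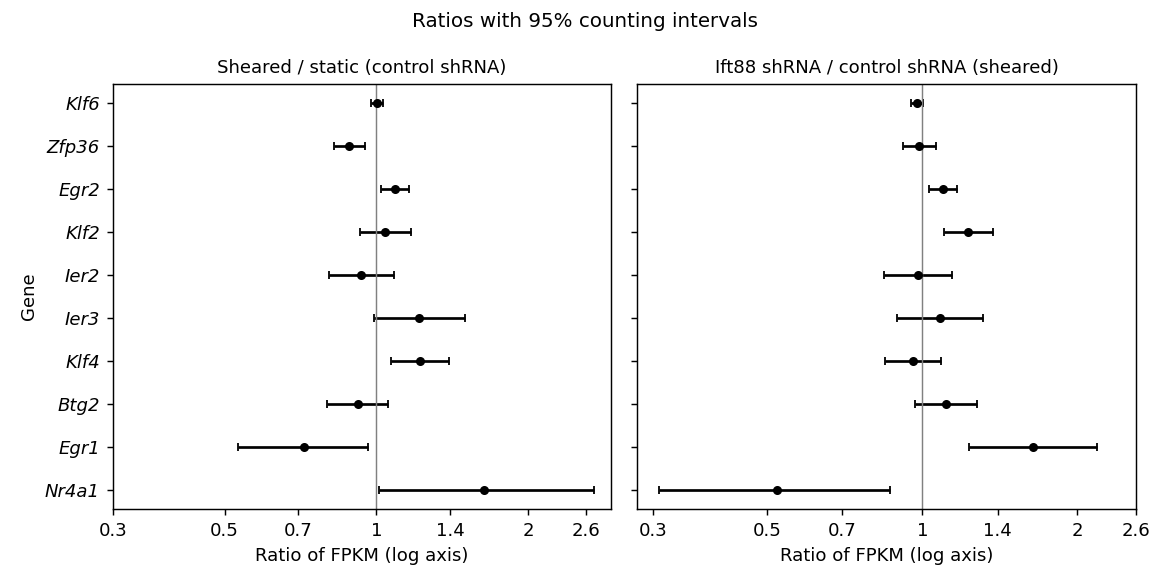
Ratio of FPKM (log axis) for each of the 10 genes with its 95% counting interval, for sheared over static control (left) and for Ift88 shRNA over control shRNA, both sheared (right). Egr1 lies at 0.719 on the left and 1.64 on the right, Nr4a1 at 1.64 and 0.523, and Klf6 within a narrow interval around 1 on the left.

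To set the 10 genes against all genes, log2 ratios of (FPKM + 1) were used, which shrink the differences of genes at low levels, with a difference of at least 1.2-fold counted. With shear, none of the 9 kept genes passed this fold, where 4.20% of 10358 genes did. Their log2 ratios ran from -0.23 (Egr1) to 0.24 (Ier3), 5 higher and 4 lower, with a median of 0.0029 against -0.011 for all genes. Among all genes 46.0% were higher and 53.9% lower. With 0.1 FPKM added in place of 1, Egr1, Ier3 and Klf4 passed the fold, as did 7.44% of all genes. By the counting interval, Egr2 and Klf4 were higher and Egr1 and Zfp36 lower, 4 of the 9, against 32.4% of 7088 genes with 1 transcript. Nr4a1, which is outside the 9, was higher by its interval (1.01 to 2.696). It also passed the fold with 0.1 FPKM added (log2 ratio 0.58).

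With Ift88 shRNA under shear, Egr1 and Klf2 were at least 1.2-fold higher and Nr4a1 at least 1.2-fold lower than in the sheared control, with log2 ratios of (FPKM + 1) of 0.36, 0.27 and -0.28. These are 3 of all 10 genes, where 1.80% of all 24067 genes were higher by that much and 1.18% lower. These shares are low in part because they include genes at or near 0 FPKM, which can hardly reach 1.2-fold on this scale. The limit of 1 FPKM leaves out Nr4a1, so among the 9 kept genes 2 were higher and none lower, against 3.25% and 2.29% of kept genes. Egr1 is kept only through the library in which it is highest, so its place among the 9 follows in part from that limit. The 9 ran from -0.051 (Klf4) to 0.36 with a median of 0.099 (0.040 over all 10), against 0.010 for all kept genes. Of the 9, 5 were higher and 4 lower (53.6% and 46.4% of all genes). With libraries scaled to equal totals, 8 of the 9 and 64.2% of all kept genes were higher, Ier2, Zfp36 and Klf6, which lie close to no difference, having changed sign. With ratios centred on the median of all genes, Egr1 was the only one of the 9 to pass the fold, as 2.87% of all genes did upward. Klf2 fell only just short of the fold there, at a log2 ratio of 0.263. By the counting interval Egr1, Egr2 and Klf2 were higher, 3 of the 9, against 32.0% of genes with 1 transcript in either direction. Nr4a1, which is outside the 9, was lower by its interval (0.309 to 0.864). On the (FPKM + 1) scale no gene of the 9 reached 1.5-fold in either comparison, which 0.454% of all genes did with shear and 0.483% with Ift88 shRNA. With nothing added, Egr1 was past it with Ift88 shRNA, at the ratio of FPKM of 1.64 given above.

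Both comparisons use the sheared control library, so a high or low value there enters each with opposite sign. The comparison of sheared Ift88 shRNA with static control does not use it, but changes flow and hairpin together. There Ier3 (log2 ratio 0.34) and Klf2 (0.33) were at least 1.2-fold higher, 2 of 9 where 4.79% of all genes were, and none was lower (4.48% of all genes). Egr1, at a ratio of FPKM of 1.18 (0.905 to 1.52), and Nr4a1, at 0.856 (0.481 to 1.51), both had intervals that include 1. Egr2, at 1.196 (1.12 to 1.27), and Klf4, at 1.17 (1.02 to 1.34), were above the static library and Zfp36, at 0.871 (0.811 to 0.936), below it. With Ier3 and Klf2, these were the 5 of 9 whose counting intervals left out 1, against 40.9% of genes with 1 transcript.

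**Figure D3:**
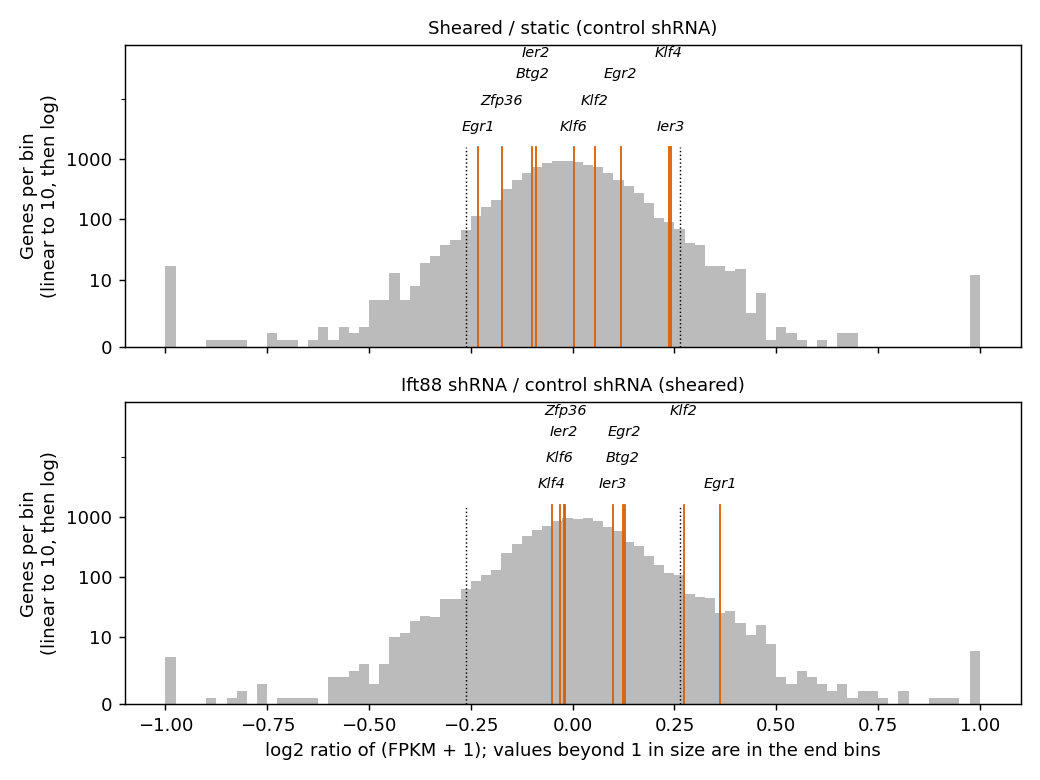
Numbers of genes per bin of the log2 ratio of (FPKM + 1) for all 10358 kept genes (grey, vertical axis linear to 10 and logarithmic above), with the 9 kept early response genes as orange lines and the 1.2-fold limits dotted. In the upper panel (sheared over static control) all 9 lie inside the limits, and in the lower panel (Ift88 shRNA over control, both sheared) Klf2 and Egr1 lie beyond the right one.

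Close relatives of the 10 genes (further EGR, NR4A, KLF, IER5, ZFP36, BTG and TOB genes with Nab1 and Nab2) were described beside them. Of 30 listed, 18 were kept, and none reached 1.2-fold in either comparison. Of all kept genes 4.20% did with shear, and with Ift88 shRNA 3.25% did upward and 2.29% downward. None in a list of this size is therefore close to the share of all genes. With shear 10 were higher and 8 lower (median log2 ratio 0.017), and with Ift88 shRNA 13 were higher and 5 lower (median 0.063). Of all kept genes, 46.0% were higher and 53.9% lower with shear, and 53.6% and 46.4% with Ift88 shRNA. For Ift88 shRNA over static control, 1 of the 18 was at least 1.2-fold higher and 1 lower (4.79% and 4.48% of all kept genes). For the ERK, SRF and CREB route 27 symbols were listed, newer names of some genes among them. Of these, 24 were matched and kept, and none reached 1.2-fold in either comparison (medians -0.022 and 0.025). Srf itself was at 9.38, 9.59 and 10.1 FPKM in the static, sheared control and Ift88 shRNA libraries. The 7 genes of the ERK5 and MEF2 route gave the same count of none (medians -0.046 and -0.049), with Mapk7, which encodes ERK5, at 20.1, 19.1 and 18.5 FPKM. For Ift88 shRNA over static control, each of these routes had 1 gene at least 1.2-fold higher and none lower.

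Other immediate early genes differed among themselves. Of 38 listed symbols 36 were matched and 32 kept, with 8 higher and 24 lower with shear (median -0.041) and 18 higher and 14 lower with Ift88 shRNA (median 0.087). Among all kept genes 46.0% were higher and 53.9% lower with shear, and 53.6% and 46.4% with Ift88 shRNA. With shear 1 of the 32 passed 1.2-fold, where 4.20% of all kept genes did. It was Dusp5, a nuclear ERK phosphatase at 0.889 and 1.31 FPKM. With Ift88 shRNA 4 passed this fold upward and 1 downward, against 3.25% and 2.29% of all kept genes. Fos, the AP-1 subunit, was at 8.66, 8.09 and 13.1 FPKM in the 3 libraries, close in both control libraries and higher with Ift88 shRNA, a ratio of 1.62 (1.45 to 1.802) over the sheared control. Plk3, a stress-responsive kinase, was at 2.36, 2.06 and 3.25 FPKM (ratio 1.58, 1.29 to 1.93). Cyr61, a secreted matricellular protein, was at 1.35, 0.967 and 1.60 FPKM (ratio 1.66, 1.19 to 2.28), low in the sheared control as Egr1 was. Its ratio with shear was 0.715 (0.509 to 1.001), an interval that includes 1, from an estimated 87, 63 and 103 fragments in the 3 libraries. The fourth was Nfkbia, the NF-kappaB inhibitor, at 34.8, 30.4 and 39.0 FPKM. Gadd45b, a stress sensor, was the lower one, at 22.8, 22.1 and 14.5 FPKM (ratio 0.654, 0.586 to 0.728). The naming rule does not cover Dusp5 and Nfkbia, which were picked with their values known.

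Transcripts that tristetraprolin is known to destabilise were described beside Zfp36. Of 11 measured genes, 6 were kept, with 1 higher and 5 lower with shear (median -0.063), and 4 higher and 2 lower with Ift88 shRNA (median 0.025). The shares of all kept genes in each direction are those given above for the relatives. The chemokine gene Cxcl2 was at 2.53, 1.13 and 3.40 FPKM, and passed 1.2-fold in both comparisons with ratios of 0.447 (0.291 to 0.668) and 3.01 (2.05 to 4.52). The monocyte chemokine gene Ccl2 was at 33.0, 29.5 and 38.5 FPKM, with a ratio of 0.892 with shear and of 1.31 (1.18 to 1.45) with Ift88 shRNA, where it passed 1.2-fold. Cxcl2 rests on an estimated 79, 36 and 108 fragments. The other kept genes, Tnf, Cxcl1, Ccl3 and Pim1, did not reach 1.2-fold in either comparison. Zfp36 mRNA was at 26.1 and 25.8 FPKM in the 2 sheared libraries. Any part of Zfp36 in the differences of Cxcl2 and Ccl2 was not tested. Heat shock genes, which respond to handling of cells, had none of 8 kept members past 1.2-fold in either comparison (medians -0.044 and -0.024). Of all kept genes 4.20% passed it with shear, and with Ift88 shRNA 3.25% did upward and 2.29% downward. For Ift88 shRNA over static control, 2 of the 8 were lower by that much (4.48% of all kept genes).

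**Figure D4:**
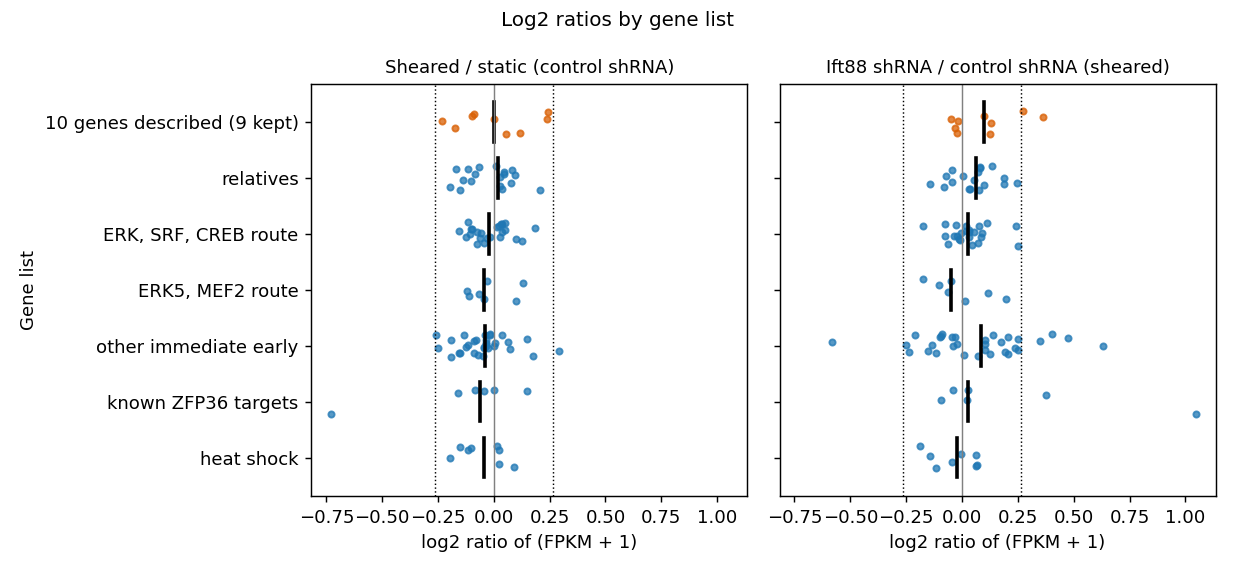
Log2 ratio of (FPKM + 1) of each kept gene by list, with a bar at the list's median and dotted 1.2-fold limits, for sheared over static control (left) and Ift88 shRNA over control, both sheared (right). The relatives, both signalling routes and the heat shock genes lie inside the limits in both panels, Cxcl2 lies farthest out among the known ZFP36 targets, and Fos and Gadd45b mark the ends of the other immediate early genes on the right.

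The genes whose pattern over the 3 libraries came closest to that of Egr1 were Bcl2a1a, Tgfbr1, Nfkbia, Ptgs1 and Ulbp1. They had the smallest Euclidean distance, 0.022 to 0.040, between log2 (FPKM + 1) values centred on the mean of the 3 libraries. Only 5121 other genes were searched, those with 1 transcript of at least 500 bases and a mean of at least 5 FPKM. Each of the nearest genes was lowest in the sheared control library, which follows from how they were chosen. Tgfbr1, a TGF-beta receptor, was at 31.6, 26.9 and 33.9 FPKM. Ptgs1, which encodes cyclooxygenase 1, was at 5.49, 4.73 and 6.29. Bcl2a1a, a survival gene with near-identical copies whose value is therefore uncertain, was at 7.43, 6.12 and 8.35, and Ulbp1, a ligand of a natural killer cell receptor, at 6.62, 5.61 and 7.17. With only 3 libraries many genes share such a pattern. Adding 1 FPKM shrinks Egr1 more than genes at higher levels, so the nearest genes changed less than Egr1 in FPKM itself. Bcl2a1a had ratios of FPKM of 0.824 (0.649 to 1.045) and 1.36 (1.09 to 1.72), against 0.719 and 1.64 for Egr1. Its interval with shear includes 1, from an estimated 156, 133 and 181 fragments in the 3 libraries. The intervals with shear of Tgfbr1, Nfkbia, Ptgs1 and Ulbp1 left out 1. Egr1 itself lies below the limit of 5 FPKM. Cyr61, with ratios of 0.715 and 1.66, lies below it too and was not searched.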

How the data were processed

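RNA was sequenced in 3 libraries of mouse pre-osteoclasts, prepared with the Illumina TruSeq mRNA kit, per the labels' protocols. The values are FPKM per gene as deposited by the authors, with RefSeq transcripts per the file headers. Build mm10, TopHat2 2.0.13, Cufflinks 2.2.1, Trimmomatic 0.32 and bcl2fastq 1.8.4 are listed in the submitters' processing notes. Their settings and any use of strand were not given in the sources used here. Of the gene IDs, 23987 matched RefSeq (GRCm38.p6), which gave coordinates.

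Library depth was inferred from the steps between low FPKM values of genes with 1 transcript of at least 1000 bases. Up to 10 fragments, 70.2%, 70.3% and 69.7% of values were whole within 0.1, so fragments are estimates and no count model was run. Lengths came from GENCODE transcripts matched to the RefSeq accession, capped by the RefSeq gene span. The procedure was tested on simulated data. Python 3.11.15, NumPy, pandas and SciPy were used.

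Genes at a mean of at least 1 FPKM (10358) were compared as log2 (FPKM + 1). Members and lists were chosen with earlier results of these data known. Named genes were the 10 members, Ift88, Srf, Mapk7, Nab1, Nab2, up to 4 genes of each other list past 1.2-fold with the largest ratios, and the 5 genes nearest to Egr1. Alternatives changed the pseudocount, scaling, expression filter and fold.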

Additional observations from a re-analysis of the deposited data

How the results depend on the processing

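The count of genes past 1.2-fold depended on the settings, because several ratios lie near that limit. With shear it was 0 of 9, and 3 with a pseudocount of 0.1 FPKM or 4 by the counting interval. With Ift88 shRNA it was 2 of 9, 3 of 10 with no filter on low values, which adds Nr4a1 as lower, 3 by the counting interval, 1 after centring on the median of all genes (Egr1), 1 with a mean of at least 5 FPKM, which leaves out Egr1 and tests 6 genes, and 0 with a pseudocount of 5 FPKM, with a 1.5-fold limit or with a 2-fold limit. The median log2 ratio of the kept genes with shear (0.0029) lay near 0 and had no stable sign, being -0.015 with equal totals, 0.014 after centring and 0.028 with a mean of at least 5 FPKM or with no filter. With Ift88 shRNA the median (0.099) was 0.066 with a pseudocount of 5 FPKM, 0.040 with a mean of at least 5 FPKM or with no filter, and at most 0.13. The pseudocount set the size for the lowest genes. With 0.1 and 5 FPKM added, the log2 ratio with Ift88 shRNA was 0.65 and 0.12 for Egr1, and -0.76 and -0.075 for Nr4a1. No paired analysis was possible because each group had 1 library. Depth limits Nr4a1 and Egr1 most.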

Other observations

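Of the 12 relatives too low to be kept, 5 were listed at 0 in every library, and the other 7 followed no common order. Egr3, Nr4a2 and Nr4a3 were each lowest in the static library and highest in the sheared Ift88 shRNA library, and Klf15 had the reverse order. By FPKM, Klf5 and Klf12 were lowest, and Klf1 highest, in the sheared control. These rest on an estimated 2, 2 and 7 fragments for Klf5, 1, 1 and 3 for Klf12, and 1, 5 and 1 for Klf1. Static and sheared control were thus equal in estimated fragments for Klf5 and Klf12. The genes given with values here were picked with those values known. Egr3, a target and relative of the other EGR factors, was at 0.0465 FPKM in static, 0.153 in sheared control and 0.284 in sheared Ift88 shRNA cells. Nr4a2 was at 0.163, 0.267 and 0.371 FPKM. Nr4a3 was at 0.0169, 0.0499 and 0.117 FPKM, which rests on an estimated 3, 10 and 23 fragments. Its ratio for Ift88 shRNA over static control was 6.93, with a counting interval of 2.31 to 39.8. Klf15 was at 0.461, 0.362 and 0.242 FPKM, an estimated 35, 28 and 19 fragments, with a ratio for Ift88 shRNA over static control of 0.525 (0.291 to 0.969). Nr4a1, the third member of that family, did not follow this order, being highest in the sheared control. The 5 listed at 0 were Egr4, Klf14, Klf17, Zfp36l3 and Btg4.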
